A study of Mus musculus with 14 samples.

Results

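The 10 endothelial identity genes Kdr, Flt1, Flt4, Tek, Tie1, Erg, Cdh5, Pecam1, Emcn and Vwf were followed through 12 peak lists from chromatin immunoprecipitation and sequencing (ChIP-seq). A peak was assigned to a gene when it overlapped the gene or the 5 kb on either side, by GRCm38 gene boundaries. The genes are 10 of 21887 protein-coding genes, and 41 of 39832 listed peaks fell in their windows. The genes were chosen by their peak counts in these same lists, recurrent homeostasis peaks at Emcn and Flt1 among them, so the counts are described here and not tested. The antibodies were against BMI1, a subunit of Polycomb repressive complex 1, and against H2AK119ub, the ubiquitinated form of histone H2A that such complexes produce. The chromatin came from Sca1+CD45- heart cells, enriched by magnetic sorting from C57BL/6 mice aged 6 to 8 weeks. In the Damage group mice were injected intraperitoneally once with paraquat, a superoxide-generating herbicide, at 20 mg/kg in PBS, and in the Homeostasis group they received PBS alone. Each combination of treatment and antibody had 3 libraries, and the 2 Input libraries were not analysed here. The labels do not say whether replicates were separate mice, and the labelled cell type could not be checked against its markers, because the lists hold positions and no expression.

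Endothelial cells line the vessels and are recognised by a small set of genes. Growth signals of the vascular endothelial growth factor family reach the cell through the receptor kinases encoded by Kdr, Flt1 and Flt4, and angiopoietins act through the receptor encoded by Tek, with the related receptor encoded by Tie1. Erg, a transcription factor of the ETS family, maintains endothelial gene expression. Polycomb repressive complex 1 is best known for silencing lineage genes at promoters rich in CpG dinucleotides. Sca1 is carried by many endothelial cells of the mouse as well as by stromal cells, and the labels name no sort against endothelial cells.

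No peak was listed at any of the 10 genes after paraquat, and 8 of the 10 had at least 1 peak at homeostasis. The Damage lists had 0 peaks in the windows in all 3 BMI1 libraries and in all 3 H2AK119ub libraries, and the Homeostasis lists had 7, 7 and 4 BMI1 peaks and 3, 13 and 7 H2AK119ub peaks (replicates 1 to 3). The means at homeostasis were 6.0 ± 1.73 peaks for BMI1 and 7.67 ± 5.03 for H2AK119ub (SD, n = 3 each). Every Damage list was below every Homeostasis list, but the Damage lists were short: they held 19 to 68 peaks over the whole genome, against 2000 to 13487 in the Homeostasis lists. The windows took 0.103% of the Homeostasis peaks, a share that would give 0.225 peaks in the 217 Damage peaks together. A count of 0 among 217 peaks allows a share of up to 1.38% (3 counts of the total, counting error only), so a change of the share these genes take was not detectable at this depth. Read depth is not known from the lists, and its part in the difference was not tested. Over all protein-coding genes, 0.142% had a peak in a Damage BMI1 list, 0.151% in a Damage H2AK119ub list and 0.283% in any Damage list.

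**Figure D1:**
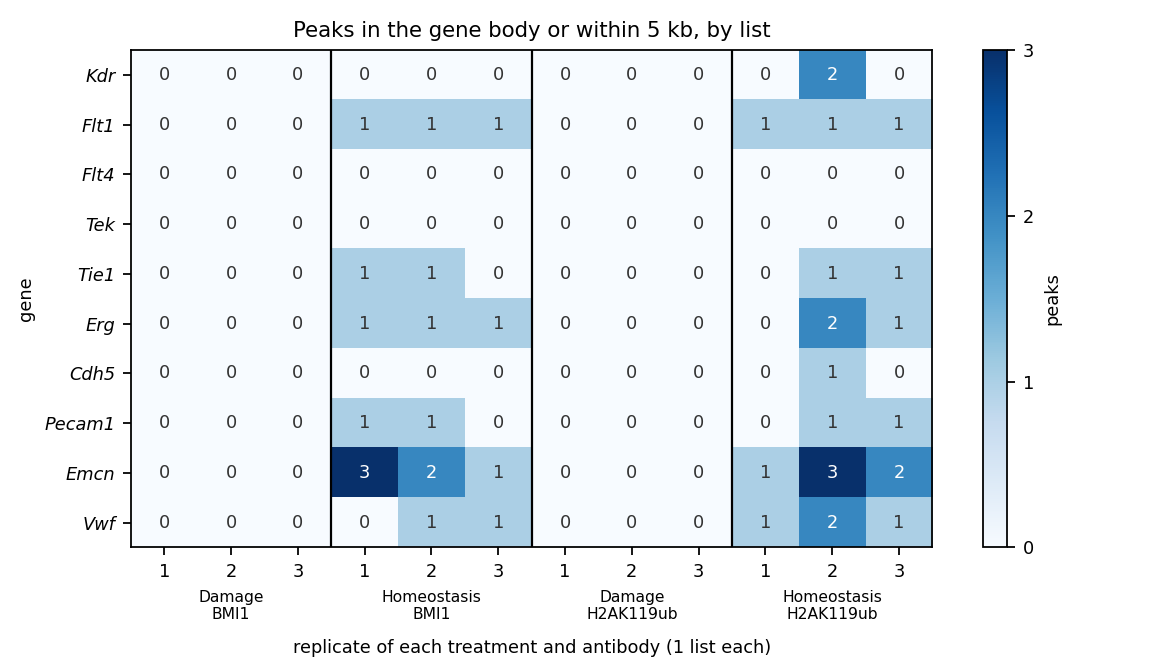
Number of peaks in the gene body or within 5 kb for each gene (rows) in each of the 12 lists (columns, replicates 1 to 3 of each treatment and antibody). The 6 Damage columns hold 0 throughout, Flt1 and Emcn have a peak in all 6 Homeostasis lists, and Flt4 and Tek have none.

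At homeostasis the same 6 genes had a peak in 2 or more of 3 lists for BMI1 and for H2AK119ub. Kdr and Cdh5 had H2AK119ub peaks in 1 list each and no BMI1 peak. The labels do not say whether the libraries of the 2 antibodies shared chromatin, so the lists of BMI1 and H2AK119ub may not be independent. Flt1, Tie1, Erg, Pecam1, Emcn and Vwf had a peak in 2 or more of 3 BMI1 lists, where 7.34% of protein-coding genes did, and the same 6 had a peak in 2 or more of 3 H2AK119ub lists, where 9.63% did, with 6.54% of protein-coding genes meeting both criteria. The choice of members used these values, so nothing is read from the excess over the background. A peak in all 3 BMI1 lists was present at Flt1, Erg and Emcn (background 4.45%), and in all 3 H2AK119ub lists at Flt1, Emcn and Vwf (background 2.92%), so that Flt1 and Emcn had one in all 6 (background 2.55%). For the same genes, every Homeostasis list of the antibody had a peak and no Damage list did, which was so at 4.4% of protein-coding genes for BMI1 and at 2.91% for H2AK119ub. Without Homeostasis BMI1 replicate 2 the 6 genes with BMI1 became 3, and without Homeostasis H2AK119ub replicate 2 or replicate 3 the 6 with H2AK119ub became 3.

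Among the receptors for vascular endothelial growth factors, Flt1 was the gene with recurrent peaks. It is also the longest, at 165 kb against 46.2 kb for Kdr and 43.1 kb for Flt4. Over the 6 Homeostasis lists 2.67 peaks were expected at Flt1, 0.859 at Kdr and 0.806 at Flt4. The ratio of observed to expected peaks was 2.25 at Flt1 and 2.33 at Kdr. The Kdr ratio counts 2 nearby peaks of 1 list. With peaks of a list within 1 kb merged, the H2AK119ub ratio of Kdr fell from 4.03 to 2.03. That of Flt1 was 1.94 before and 1.96 after merging. In the longest of 10 length classes, which holds Flt1, 13.2% of protein-coding genes had a peak in all 6 lists. Flt1 (VEGFR1, a receptor that also acts as a decoy for the ligand; chromosome 5, 147561604 to 147726438) had 0 peaks in each of the 6 Damage lists and 1 peak in each of the 6 Homeostasis lists. All 6 peaks formed 1 site at 147611461 to 147611589, 115 kb after the gene start and 49.9 kb before its end. Kdr (VEGFR2, the main signalling receptor of the family; chromosome 5, 75932827 to 75979072) had 0 peaks in the Damage lists and in the 3 Homeostasis BMI1 lists, and 0, 2 and 0 in the Homeostasis H2AK119ub lists. The Kdr peaks, at 75954099 to 75954199 and 75954787 to 75954887, lay in the middle of the gene and came from the longest list alone. Flt4 (VEGFR3, the receptor of lymphatic endothelium; chromosome 11, 49609679 to 49652739) had 0 peaks in all 12 lists, and no peak lay within 100 kb of it. For a window of its length, 0.112 BMI1 and 0.156 H2AK119ub peaks were expected per Homeostasis list, so its 0 does not set it apart from other genes of that length.

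Of the angiopoietin receptor gene Tek and the related Tie1, Tie1 had 1 recurrent site and Tek had none in its window. Tie1 (chromosome 4, 118471191 to 118489849), the shortest of the 10 genes at 18.7 kb, had 0 peaks in each Damage list. At homeostasis it had 1, 1 and 0 BMI1 peaks and 0, 1 and 1 H2AK119ub peaks, all at 118473197 to 118473301, 2.06 kb before the end of the gene. Tek, which encodes the receptor TIE2 (chromosome 4, 94739086 to 94874976), had 0 peaks in all 12 lists, with 0.265 BMI1 and 0.388 H2AK119ub peaks expected per Homeostasis list. In the longest of 10 length classes, which holds Tek, 33.8% of protein-coding genes had no peak in any Homeostasis list. The 0 of Tek is thus common at that length. The nearest peaks lay upstream, beyond the 5 kb limit: a site 15.99 kb before its start, 94722980 to 94723094, was in 2 BMI1 and 2 H2AK119ub Homeostasis lists, and a single peak of Homeostasis BMI1 replicate 1 lay 16.2 kb before the start. No member peak lay in the 5 kb flanks, so the peaks just inside the limit were all in gene bodies, and those of Tek were the closest outside it.

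Erg, the transcription factor (chromosome 16, 95359169 to 95586600), had 0 peaks in each Damage list, 1, 1 and 1 BMI1 peaks and 0, 2 and 1 H2AK119ub peaks at homeostasis. Of these, 5 formed a site at 95503914 to 95504019, found in all 3 BMI1 lists and in H2AK119ub replicates 2 and 3. It lay 82.6 kb after the upstream boundary of the gene and 26.4 kb after the nearest of its 3 promoter entries in RefSeq. The remaining H2AK119ub peak of replicate 2 was at 95507023 to 95507123. Upstream of Erg, 72.8 kb before its start and 42.9 kb from Ets2, another ETS factor gene, a site at 95659359 to 95659469 was in all 6 Homeostasis lists and no Damage list.

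Among the junction and surface genes, Emcn held the most peaks of the 10 genes. Emcn encodes endomucin, a sialomucin of venous and capillary endothelium (chromosome 3, 137341062 to 137431069). It had 0 peaks in each Damage list, 3, 2 and 1 BMI1 peaks and 1, 3 and 2 H2AK119ub peaks at homeostasis. The site in all 6 lists was at 137381994 to 137382108, 41.0 kb after the gene start, and another, at 137371088 to 137371214, was in 2 lists of each antibody. H2AK119ub replicate 2 added a peak 2.43 kb after the start and BMI1 replicate 1 a peak 11.5 kb before the end. Emcn thus had 1 site that every list shared and others that varied between lists. Pecam1, which encodes the junctional adhesion protein CD31 (chromosome 11, 106654213 to 106715281), had 0 peaks in each Damage list. At homeostasis it had 1, 1 and 0 BMI1 peaks and 0, 1 and 1 H2AK119ub peaks, all at 106676609 to 106676712. These are the same 4 lists as for the Tie1 site and the Emcn site at 137371088, and the lists that lacked all 3 sites, BMI1 replicate 3 and H2AK119ub replicate 1, were the shortest of their antibody, with 4072 and 2000 peaks. The recurrent site of Vwf went the other way. It was in both of these shortest lists and not in BMI1 replicate 1, with 5020 peaks. The part of list length was not tested.

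Cdh5, which encodes VE-cadherin of the adherens junction (chromosome 8, 104101613 to 104144504), had 0 peaks in each Damage list and each BMI1 list, and 0, 1 and 0 H2AK119ub peaks at homeostasis. That peak, at 104101754 to 104101897, was the widest of the 41 at 144 bp. Its centre lay 212 bp inside the lower-coordinate end of Cdh5 and it also fell in the long noncoding RNA gene Gm29682, so it cannot be assigned to a single gene. It was listed in the longest list alone. Vwf, which encodes von Willebrand factor, the clotting protein stored in endothelial cells (chromosome 6, 125552948 to 125686679), had 0 peaks in each Damage list. It had 0, 1 and 1 BMI1 peaks and 1, 2 and 1 H2AK119ub peaks at homeostasis. A site at 125617985 to 125618106 near the middle of the gene held 5 of these 6 peaks, from BMI1 replicates 2 and 3 and all 3 H2AK119ub lists. The remaining peak, of H2AK119ub replicate 2, lay just beside this site at 125617859 to 125617959 without overlapping it. With peaks of a list within 1 kb merged, the H2AK119ub ratio of Vwf was 2.18, against 2.87 in the main setting.

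**Figure D2:**
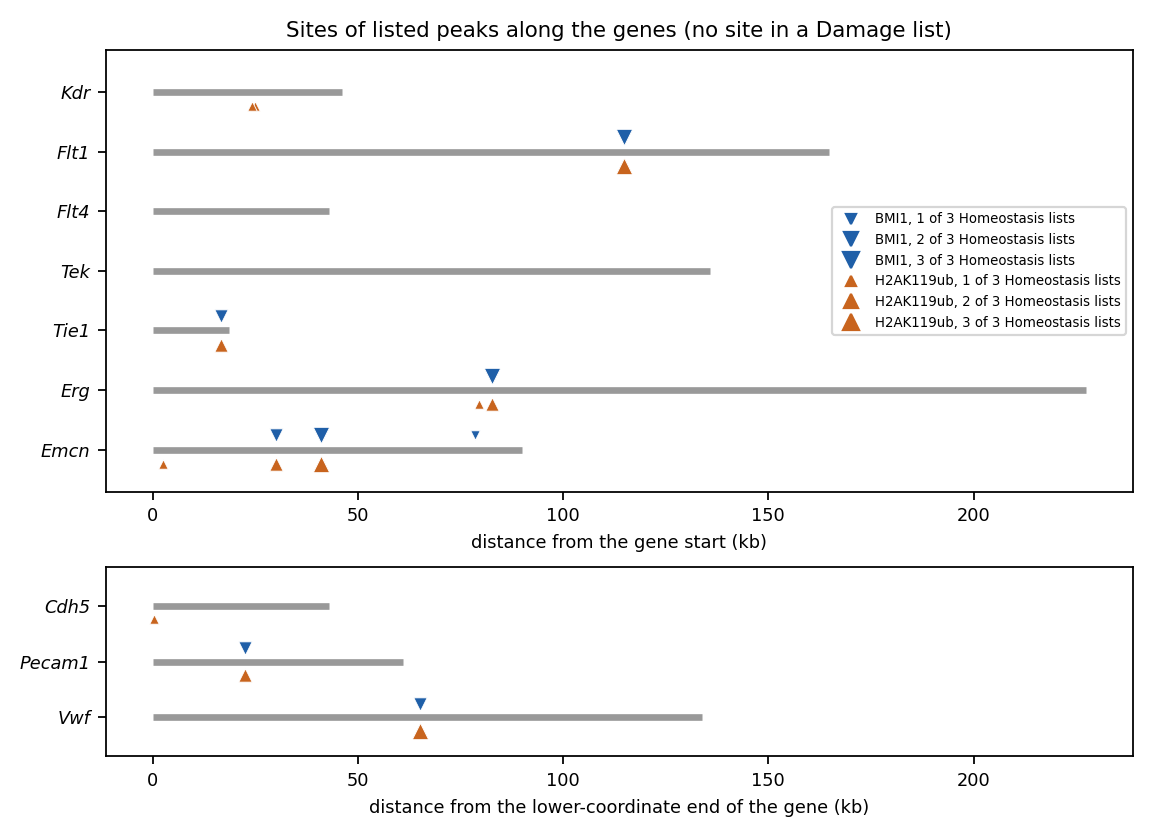
Position of the 14 sites along each gene (grey bar, gene length), in kb from the gene start for the 7 genes whose strand RefSeq's promoter table gives and from the lower-coordinate end for the other 3. Marker size gives the number of Homeostasis lists of the antibody (BMI1 above, H2AK119ub below), and the paired markers show the 7 sites that hold both.

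The 41 peaks formed 14 sites (merged where they overlapped by 1 bp or more), all inside gene bodies and none in a Damage list. Of the 14, 7 were in 4 or more Homeostasis lists and 7 in a single list, with none in 2 or 3. The 7 recurrent sites, in 6 genes, all held both antibodies, which a site in 4 or more lists must, since each antibody has 3. Over the whole genome 23.1% of 17229 Homeostasis sites were in 4 or more lists. Of the 7 single-list sites, 6 came from Homeostasis H2AK119ub replicate 2, the list with 13487 peaks, which gave 62.4% of the single-list sites of the genome. The peaks were narrow, 37 of 41 having the same smallest width of 101 bp. This was a trait of the whole lists and not of these genes. The 5020 peaks of Homeostasis BMI1 replicate 1 covered 509 kb in sum, and the 2000 of Homeostasis H2AK119ub replicate 1 covered 202 kb. Within a recurrent site the peak centres of different lists lay 3 to 28 bp apart from lowest to highest (median 14 bp, against 16 bp for the recurrent sites of the genome). The median BMI1 centre was 1.0 to 7.0 bp from the median H2AK119ub centre at 6 of the 7 sites, and 18.5 bp from it at the Emcn site in 4 lists. The lists give no strand of the reads and no sequence was used under the peaks, so repeats and the mappability of these sites were not checked.

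**Figure D3:**
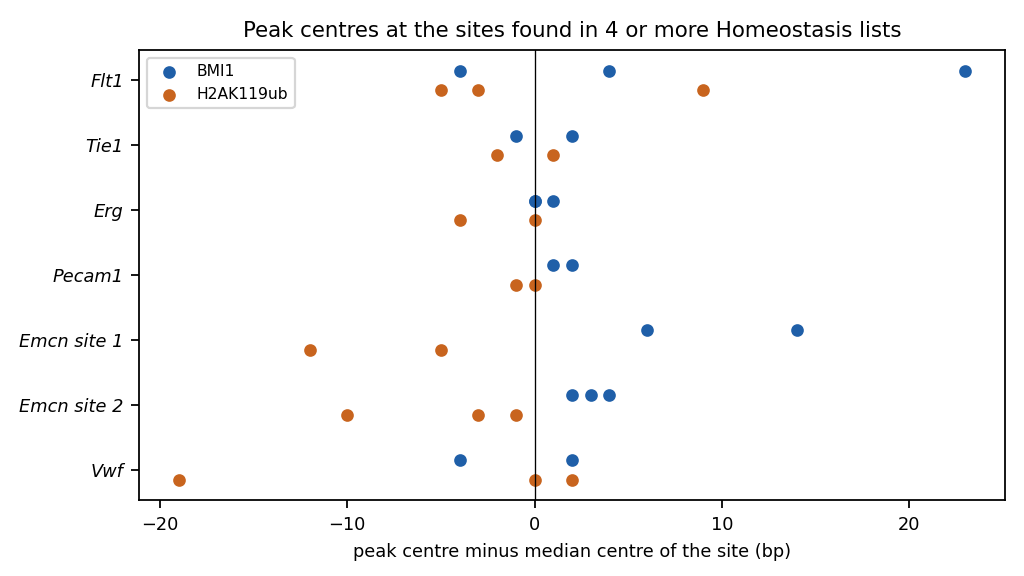
Centre of each peak relative to the median centre of its site, in bp, at the 7 sites found in 4 or more Homeostasis lists (Emcn site 1 is the site in 4 lists and site 2 the site in 6). Points of both antibodies lie within 28 bp of each other at every site.

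The number of peaks was then set against the number expected for the length of the window, from the peaks of the list on that chromosome. Over the 10 windows, observed peaks were 2.64 times the expected number for BMI1 (18 against 6.81 over 3 lists) and 2.48 times for H2AK119ub (23 against 9.28). Per list the ratio was 2.71 ± 0.691 for BMI1 and 2.84 ± 0.868 for H2AK119ub (SD, n = 3 each), and it was above 2 in each of the 6 lists, from 2.24 to 3.84. The windows of all protein-coding genes held 0.875 times the expected number for BMI1 and 0.882 times for H2AK119ub. The members were picked for their peaks, so the ratios describe them and give no support for a link to endothelial genes.

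Gene by gene, over both antibodies, the order of the ratios was Tie1 (4 peaks against 0.385 expected, ratio 10.4), Emcn (12 against 1.55, ratio 7.73), Pecam1 (4 against 1.08, ratio 3.71), Vwf (6 against 2.43, ratio 2.46), Kdr (2 against 0.859, ratio 2.33), Flt1 (6 against 2.67, ratio 2.25), Erg (6 against 3.50, ratio 1.72) and Cdh5 (1 against 0.835, ratio 1.20), with Flt4 and Tek at 0. The high ratio of Tie1 rests on 1 site and a short window. That of Emcn had the same rank in each antibody, 9.35 for BMI1 and 6.59 for H2AK119ub, second to Tie1 at 12.8 and 8.74. The ratios from Vwf to Erg rest on 2 to 6 peaks each over 6 lists, and the order of these neighbours is not firm. The Kdr and Cdh5 ratios were both 0 without Homeostasis H2AK119ub replicate 2, which held all their peaks. The median ratio was 2.29 for the 10 genes and 0 for all protein-coding genes, of which 80.7% had no peak in any Homeostasis list and 14.8% a ratio above 1.

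**Figure D4:**
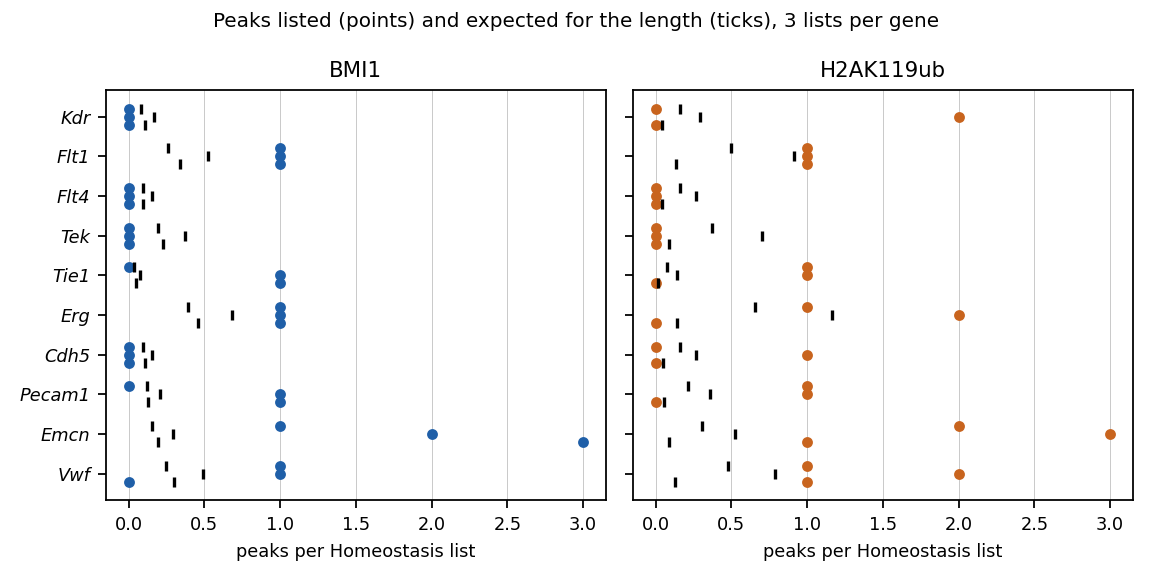
Peaks per Homeostasis list (points, 3 lists per gene) beside the number expected for the length of the gene window in the same list (black ticks), for BMI1 and H2AK119ub. Emcn and Flt1 lie above their expected numbers in all 6 lists, and Flt4 and Tek lie at 0 with expected numbers below 1.

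Long genes have more peaks by length alone, and the members are long: their median length was 75.5 kb, against 17.2 kb for all protein-coding genes. Protein-coding genes were divided into 10 equal classes of length. Of the 4 members in the longest class (Flt1, Tek, Erg and Vwf), 3 had peaks in 2 or more Homeostasis lists for either antibody, against 33.7% of all genes of the class with BMI1 and 41.8% with H2AK119ub. Both members of the next class, Pecam1 and Emcn, had such peaks, against 10.9% and 15.9% of its genes. Of Kdr, Flt4 and Cdh5, 0 of 3 had them, in a class with 6.58% and 9.10%. Tie1 had them in a class with 3.88% and 5.62%. The 6 members observed for each antibody stand beside 1.80 genes for BMI1 and 2.32 for H2AK119ub, the sums of the class shares over the 10 members. The members were chosen by their counts in these same lists, so nothing is read from that difference.

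**Figure D5:**
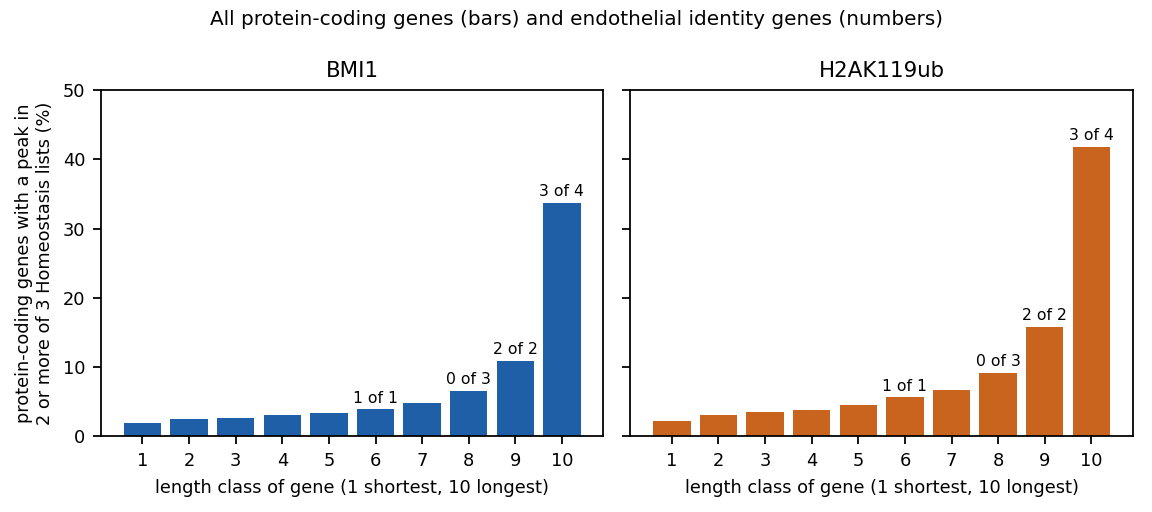
Share of protein-coding genes with a peak in 2 or more of 3 Homeostasis lists (bars, %) in 10 classes of gene length, for each antibody. Numbers above the bars count the endothelial identity genes with such peaks of those in the class, 3 of 4 in the longest class and 0 of 3 in class 8.

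The surroundings of the members were counted too. From 5 to 100 kb outside the 10 genes the Homeostasis lists held 9 BMI1 peaks against 12.05 expected and 13 H2AK119ub peaks against 16.6 expected. The ratio was 0.768 for both together, and the Damage lists held 0. The windows of all protein-coding genes had a ratio of 0.879, but these are gene bodies with 5 kb on either side. The same flanks of all protein-coding genes were not counted, so 0.768 has no matched background. No comparison is drawn with the members' own windows, whose peaks were used to choose them. Flt1, Flt4, Tie1 and Emcn had no peak there in any list. Sites beyond the limit that recurred in 3 or more lists were those of Tek and Erg above, a site inside Bean1 44.7 kb from Cdh5 (3 lists) and a site inside Tex2 69.6 kb from Pecam1 (4 lists).

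Promoters could be examined for 7 of the 10 genes, those with entries in RefSeq's GRCm38.p6 promoter table (250 bases before to 50 after the gene start). With 3 entries for Erg, 0 of these 9 windows overlapped a peak in any list. Over all protein-coding genes 0.08% of 21263 promoter windows did in a Homeostasis list. In these 7 genes the site nearest to such a start was the single peak of Emcn, 2.41 kb after it. Cdh5, Pecam1 and Vwf had no entry, so the Cdh5 peak centred 212 bp inside a gene end was not compared with a promoter. The sequences of 4 promoters are shown, 5′ to 3′ on the strand of the gene, because they pair the genes with a peak in all 6 Homeostasis lists (Flt1 and Emcn) with those that had none (Flt4 and Tek). Capitals mark each CG dinucleotide.
Flt1: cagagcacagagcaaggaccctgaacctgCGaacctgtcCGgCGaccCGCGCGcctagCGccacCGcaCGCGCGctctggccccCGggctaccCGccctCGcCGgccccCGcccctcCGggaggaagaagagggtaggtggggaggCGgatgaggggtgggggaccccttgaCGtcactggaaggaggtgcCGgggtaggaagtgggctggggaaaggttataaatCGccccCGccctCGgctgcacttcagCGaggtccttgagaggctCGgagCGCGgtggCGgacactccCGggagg
Emcn: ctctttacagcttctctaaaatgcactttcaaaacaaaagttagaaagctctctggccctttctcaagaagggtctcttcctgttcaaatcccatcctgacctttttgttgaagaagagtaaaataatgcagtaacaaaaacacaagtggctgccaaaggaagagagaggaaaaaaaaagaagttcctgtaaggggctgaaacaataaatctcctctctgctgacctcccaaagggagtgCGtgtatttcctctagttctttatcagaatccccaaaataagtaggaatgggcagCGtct
Flt4: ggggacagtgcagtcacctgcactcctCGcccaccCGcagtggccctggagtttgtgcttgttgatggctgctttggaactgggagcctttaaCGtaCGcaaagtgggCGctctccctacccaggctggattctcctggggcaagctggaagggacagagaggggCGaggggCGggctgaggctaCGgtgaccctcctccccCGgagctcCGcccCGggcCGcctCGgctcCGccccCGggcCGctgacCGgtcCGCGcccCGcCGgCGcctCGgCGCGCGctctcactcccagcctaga
Tek: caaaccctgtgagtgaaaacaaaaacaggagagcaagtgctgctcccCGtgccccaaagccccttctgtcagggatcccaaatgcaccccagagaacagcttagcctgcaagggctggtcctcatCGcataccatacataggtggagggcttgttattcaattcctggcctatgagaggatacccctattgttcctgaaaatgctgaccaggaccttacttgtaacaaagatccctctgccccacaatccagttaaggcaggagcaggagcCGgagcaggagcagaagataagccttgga
The windows are chr5:147725962-147726261 (minus strand) for Flt1, chr3:137340828-137341127 (plus) for Emcn, chr11:49609429-49609728 (plus) for Flt4 and chr4:94739039-94739338 (plus) for Tek. Flt1 holds 29 CG dinucleotides at 70.7% G and C and Emcn 2 at 41.0%, and among the genes without peaks Flt4 holds 26 at 70.3% and Tek 3 at 52.0%. Each pair therefore has a CpG-rich and a CpG-poor promoter. The median was 7 CG over the 9 member windows and 13 over all windows, of which 95.4% hold at least 1.

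Other genes of endothelial signalling and identity gave a comparison. Of 77 genes outside the 10, 11 had a BMI1 peak in 2 or more Homeostasis lists (14.3%, against 7.34% of all protein-coding genes) and 11 an H2AK119ub peak (14.3%, against 9.63%). Of the 77, 58 had no Homeostasis peak, where 80.7% of all protein-coding genes had none. A Damage peak was present at 0 of the 77, where 0.283% of all protein-coding genes had one. Their median length was 19.7 kb and the ratio of observed to expected peaks was 1.47 in sum, with a median of 0. By role, 4 of 13 angiogenic ligand genes had such BMI1 peaks, 1 of 15 receptor genes, 3 of 19 transcription factor genes and 3 of 30 junction, adhesion and surface genes. For H2AK119ub the counts were 4, 2, 3 and 2. Of the 77, 7 genes had a peak in all 3 Homeostasis lists of at least 1 antibody: Vegfa, Angpt1, Ptprb, Elk3, Klf4, Mef2c and Rasip1. Vegfa and Mef2c met this for BMI1 alone and Rasip1 for H2AK119ub alone. Of all protein-coding genes, 4.45% met it for BMI1 and 2.92% for H2AK119ub. The share that met it for either antibody was not counted. Angpt1, the angiopoietin that activates TIE2, had 2, 2 and 1 BMI1 peaks and 1, 2 and 2 H2AK119ub peaks. Ptprb, the phosphatase that restrains TIE2, had 1, 1 and 1 BMI1 peaks and 1, 2 and 2 H2AK119ub peaks. Both therefore had peaks in all 6 Homeostasis lists, while Tek had none in its window. All 3 genes are in the longest class of length, where 13.2% of genes had a peak in all 6 lists and 33.8% in none. Angpt2, the other angiopoietin among the 77, had 0 peaks. No pattern of the pathway is read from this. Vegfa, the ligand of the receptors encoded by Kdr and Flt1, had 1, 1 and 1 BMI1 peaks and 1, 0 and 1 H2AK119ub peaks. Among transcription factors, Elk3, an ETS factor, had 1 peak in each of the 6 lists, Klf4, induced by blood flow, had 1, 1 and 1 BMI1 peaks and 1, 2 and 1 H2AK119ub peaks, and Mef2c had 1, 1 and 1 and 0, 3 and 2. Rasip1, which is needed for vessel lumens, had 1, 1 and 0 BMI1 peaks and 1 H2AK119ub peak in each list. All 7 genes with a peak in all 3 lists of an antibody had 0 peaks in the Damage lists.

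The pattern of Flt1 and Emcn was a peak in all 6 Homeostasis lists and in no Damage list. For each of these genes, with the other included, it was the pattern of 551 protein-coding genes. Those closest in length to Flt1 were Ugt1a10, Wwc2 and Fbxw7, and those closest to Emcn were Cd44, Pikfyve and Snx7. The pattern of Erg, which lacks only H2AK119ub replicate 1, was that of 373 genes, with Cobl, Ttll11 and Srgap3 nearest in length. That of Vwf, which lacks BMI1 replicate 1, was that of 31 genes, with Mapk4, Mgam and Zfp608 nearest. Likeness here is the agreement of presence or absence over 12 lists, and it carries no size of signal.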

How the data were processed

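BMI1 and H2AK119ub ChIP-seq peak lists of 12 libraries, 3 per treatment and antibody, were used. Bowtie2 (no version stated), HOMER 4.8 and the build GRCm38 are named in the submitters' processing notes. How peaks were called and whether Input was used is not stated there. Each library has its own list, deposited by the authors with a score column that is 1 for every peak, so only positions were used and depth is unknown. Starts were converted to 1-based positions. Peaks outside the assembled chromosomes (143) were left out of gene counts. Gene boundaries came from RefSeq's GRCm38.p6 table (49943 genes), in which all 10 symbols matched. It gives no exons, so exons and introns were not separated.

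A peak was counted for a gene at an overlap of 1 bp or more with the gene body extended by 5 kb. The expected number was the peaks of the list on the chromosome times the window length over the span of peaks and genes on that chromosome. All 10 members were named whatever their values, and of the 77 other endothelial genes those with a peak in all 3 Homeostasis lists of an antibody, plus any with a Damage peak. Angpt2 was named beside Angpt1. The genes under a member peak were named too, and for each member with peaks in 5 or more Homeostasis lists the 3 genes closest in length with the same pattern. The members and lists were chosen with earlier results of these data known, and no test was made on them. Promoters came from RefSeq's GRCm38.p6 table. Computation used Python 3.11.15 with numpy 2.4.6 and pandas 2.3.3, and the counting was tested on simulated data. Alternatives were the window, the overlap rule, merging of peaks within 1 kb, the density behind the expected number, the number of lists required, and leaving out each library.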

Additional observations from a re-analysis of the deposited data

How the results depend on the processing

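The count of 0 Damage peaks in the 10 windows held for both antibodies under every alternative tried, including windows of 50 kb on either side. The 6 members with BMI1 peaks in 2 or more Homeostasis lists became 3 when a peak in all 3 lists was required, and the 6 with H2AK119ub also became 3. Leaving out 1 library gave 3 to 5 members for BMI1 and 3 to 6 for H2AK119ub, since a gene then needed a peak in both remaining lists. With 50 kb on either side the ratio of observed to expected peaks was 1.76 for BMI1 and 1.58 for H2AK119ub, in windows that include the surroundings. It stayed within the spread between libraries of the values reported under the other alternatives, and leaving out 1 library gave 2.29 to 2.99 for BMI1 and 2.35 to 2.60 for H2AK119ub. Of 200 ratios of single genes, 4 moved by more than that spread: with 50 kb on either side Tek had 2.33 for BMI1 and 1.06 for H2AK119ub, and Cdh5 1.03 for BMI1, and the H2AK119ub ratio of Kdr was 0 without Homeostasis H2AK119ub replicate 2. That of Cdh5, a single peak, was also 0 without it. For single genes the spread was often about as large as the ratio, as for Tie1 with BMI1 (12.8, SD 11.2). Large shifts therefore did not count as moved. With 50 kb on either side the BMI1 ratio was 3.09 for Tie1 and 1.95 for Pecam1 (4.43 in the main setting). The small number that moved does not show that the ratios of single genes are stable. No paired analysis was possible because the results come from no test and the labels do not say which libraries share mice or chromatin. Unknown depth limits every count of 0.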
